A study of Mus musculus with 4 samples.

Results

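Expression of 10 genes of the NRF2 antioxidant response was followed in mouse peritoneal macrophages after microcurrent stimulation (MCS). The genes were taken by name, and all 10 were among the 15298 genes listed: the transcription factor gene *Nfe2l2*, its inhibitor gene *Keap1*, and the enzyme and transporter genes *Nqo1*, *Gclm*, *Gclc*, *Slc7a11*, *Gsr*, *Txnrd1*, *Srxn1* and *Prdx1*. RNA was sequenced from CD11b+ F4/80+ Ly6G- cells sorted from the peritoneal cavity of female BALB/c mice aged 6 weeks, with 1 library for each of 4 conditions. In Cont_ZT2 and Cont_ZT14 the mice went through the procedure, anaesthesia with isoflurane included, without current, and the labels call them not treated. In MCS_ZT2 and MCS_ZT14 they received a bidirectional pulsed current of 300 µA at 400 Hz for 15 min through pads on the abdomen and back at ZT2. Zeitgeber time (ZT) counts hours from lights on. Cells labelled ZT2 were taken immediately after the stimulation and those labelled ZT14 were taken 12 h later. The sources used here do not say how many mice each library stands for, so no value has a replicate check, and the only test between conditions was a count test with 1 residual degree of freedom.

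NRF2, the product of *Nfe2l2*, is the main activator of genes that protect cells from oxidants and reactive chemicals. KEAP1 holds it for destruction in unstressed cells, and oxidation of KEAP1 cysteines lets NRF2 accumulate, pair with small MAF proteins and bind antioxidant response elements near its target genes, so that its activity is set largely at the protein level. The targets supply glutathione, keep thioredoxin and peroxiredoxins reduced and detoxify quinones, and in macrophages, which make oxidants to kill what they engulf, the pathway is also known to restrain inflammation.

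The start of transcription was examined for the letters that NRF2 and related factors are known to bind. RefSeq promoters of the mouse build GRCm38.p6 matched 8 of the 10 genes, with 10 promoters in all, and the 250 bases before each start were searched on both strands for the antioxidant response element core (TGACNNNGC or TGAGNNNGC), the AP-1 site (TGACTCA, which can overlap the former), the amino acid response element core (TTGCATCA) and the E-box (CACGTG). *Slc7a11*, *Txnrd1* and *Srxn1* are shown because their RNA varied most over the 4 libraries, and *Nfe2l2* because it encodes the factor itself. Each is written in its own direction of transcription, 5′ to 3′, with motif matches in capitals.
Slc7a11, chr3:50443614-50443863, minus strand: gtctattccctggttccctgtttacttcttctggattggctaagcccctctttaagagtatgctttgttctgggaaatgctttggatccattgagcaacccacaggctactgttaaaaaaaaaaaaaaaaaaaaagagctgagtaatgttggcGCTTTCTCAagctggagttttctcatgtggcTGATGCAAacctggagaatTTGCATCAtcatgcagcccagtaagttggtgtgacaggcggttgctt
Txnrd1, chr10:82858956-82859205, plus strand: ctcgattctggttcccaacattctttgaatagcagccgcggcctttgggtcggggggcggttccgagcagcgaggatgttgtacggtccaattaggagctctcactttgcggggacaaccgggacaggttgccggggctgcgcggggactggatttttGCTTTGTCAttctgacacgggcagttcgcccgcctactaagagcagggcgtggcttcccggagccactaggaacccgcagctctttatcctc
Srxn1, chr2:152105274-152105523, plus strand: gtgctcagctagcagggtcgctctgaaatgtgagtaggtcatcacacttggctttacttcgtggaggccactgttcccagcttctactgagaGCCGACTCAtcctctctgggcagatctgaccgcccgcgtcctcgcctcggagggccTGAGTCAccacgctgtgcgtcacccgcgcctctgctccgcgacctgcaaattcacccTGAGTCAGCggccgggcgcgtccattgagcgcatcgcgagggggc
Nfe2l2, chr2:75704664-75704913, minus strand: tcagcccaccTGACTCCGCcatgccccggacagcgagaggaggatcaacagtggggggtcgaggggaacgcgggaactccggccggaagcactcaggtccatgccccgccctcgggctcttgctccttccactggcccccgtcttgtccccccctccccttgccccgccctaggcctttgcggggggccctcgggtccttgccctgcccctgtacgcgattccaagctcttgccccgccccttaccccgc
The antioxidant response element core was matched in 6 of the 10 promoters, 1 each of *Nfe2l2*, *Gclm*, *Txnrd1*, *Srxn1*, *Slc7a11* and *Prdx1*, and 23% of all 32851 promoters held it in a window of the same length. *Srxn1* had 2 matches, the nearer of them 45 to 37 bases before the start, where it overlapped an AP-1 site, and *Txnrd1* had its match at 92 to 84 bases, in 1 of its 3 promoters. *Slc7a11* had its match at 97 to 89 bases and 2 matches of the amino acid response element core, at 66 to 59 and at 47 to 40 bases. The last motif was found in 0.791% of all promoters. AP-1 sites were present in *Srxn1* and *Prdx1* and in 4.46% of all promoters, and no E-box was present in any of the 10 promoters, against 6.02% of all. These are matches of letters and not measured binding sites. No promoter was available for *Gclc* and *Gsr*, and bases farther than 250 before a start were not searched.

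The libraries held 8658191 (Cont_ZT2), 9217493 (Cont_ZT14), 8365590 (MCS_ZT2) and 9953243 (MCS_ZT14) recovered reads, so that 1 read was worth 0.102 to 0.116 in CPM, the deposited measure scaled to library size, and 3 reads, the most that a count of 0 allows, 0.307 to 0.348 CPM. The 9 macrophage markers, such as *Adgre1* and *Csf1r*, summed to 26230 CPM in Cont_ZT2, 25490 in Cont_ZT14, 25407 in MCS_ZT2 and 27995 in MCS_ZT14. Markers of other cells were present, and in a mixed sample fewer cells of a type and less RNA per cell cannot be told apart. Of 8 eosinophil and mast cell markers, 6 were listed (not *Epx* or *Prg2*) and summed to 2237 CPM in MCS_ZT2, 1811 in Cont_ZT2, 1178 in Cont_ZT14 and 962 in MCS_ZT14. Of 10 neutrophil markers, 9 were listed (not *Ly6g*), with 235 CPM in MCS_ZT2 and 112 to 131 CPM in the other libraries. Red blood cell markers, 6 of 9 listed, had 112 CPM in MCS_ZT14, 36.7 in MCS_ZT2 and 1.32 to 3.23 in control. B cell markers, 5 of 6 listed, had 1279 CPM in Cont_ZT14, 1044 in Cont_ZT2, 1004 in MCS_ZT2 and 901 in MCS_ZT14. Sums of the other lists ran from 27.7 to 56.7 CPM for T and natural killer cells (7 of 7 markers), 33.6 to 60.3 for dendritic cells (5 of 5) and 6.59 to 28 for mesothelial cells and fibroblasts (8 of 8). None of these listed markers was at 0 in all 4 libraries.

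Of the 10 genes, 9 were expressed above a mean of 1 CPM and *Nqo1* was not. Per kilobase of transcript, and as a mean over the 4 libraries, *Prdx1* was the highest at 56.5 CPM per kb, followed by *Nfe2l2* at 30.9, *Gsr* at 18.8, *Keap1* at 16.7, *Txnrd1* at 15.4, *Gclc* at 8.71, *Srxn1* at 5.79, *Gclm* at 2.74, *Slc7a11* at 1.1 and *Nqo1* at 0.106. The order of *Gsr*, *Keap1* and *Txnrd1* was not fixed, since their ranges over the libraries overlapped (15.6 to 22, 15.8 to 17.2 and 11.1 to 19.4 CPM per kb). All other neighbours were separate in range. The RNA of the regulator pair was thus present at levels within those of the enzymes that the pathway is known to control.

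**Figure D1:**
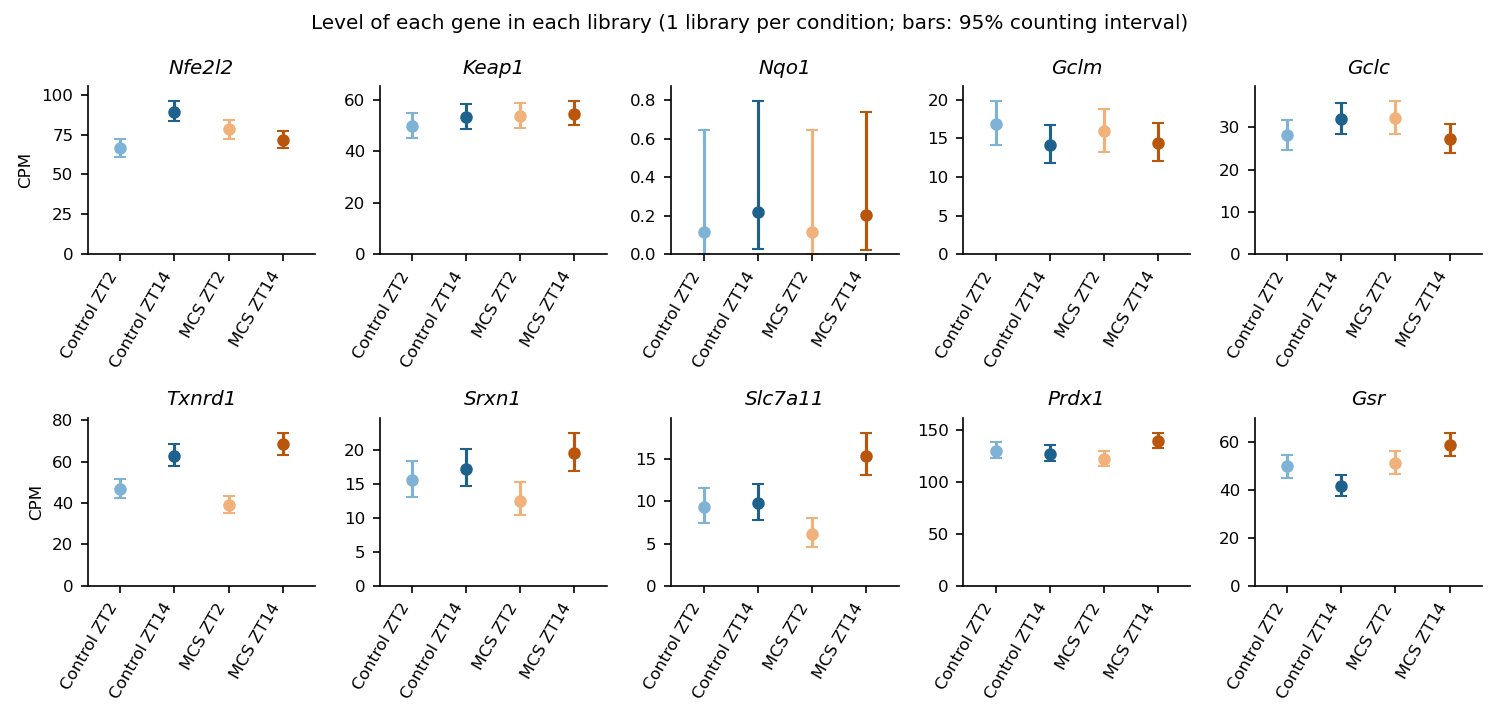
CPM of each of the 10 genes in Cont_ZT2, Cont_ZT14, MCS_ZT2 and MCS_ZT14, 1 library each, with bars for the 95% counting interval and a vertical axis that starts at 0 in every panel. *Slc7a11* runs from 6.15 CPM in MCS_ZT2 to 15.4 CPM in MCS_ZT14, *Keap1* stays between 50 and 54.7 CPM, and *Nqo1* rests on 1 or 2 reads in each library.

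*Nfe2l2* had 66.4 CPM in Cont_ZT2, 89.4 in Cont_ZT14, 78.3 in MCS_ZT2 and 71.8 in MCS_ZT14. The highest level was therefore in control at ZT14 and the lowest in control at ZT2, with both MCS libraries between them. The sum of B cell markers was also highest in Cont_ZT14, but lowest in MCS_ZT14, and the part of B cells in these levels was not tested. *Keap1*, whose product is the adaptor that hands NRF2 to a CUL3 ubiquitin ligase, had 50, 53.4, 53.8 and 54.7 CPM in the same order of libraries. Its highest level was 1.09 times its lowest, the narrowest range of the 10 genes.

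*Nqo1*, which encodes a quinone reductase and is widely used as a readout of NRF2, was close to absent. It had 0.115, 0.22, 0.116 and 0.205 CPM, from 1 read in each ZT2 library and 2 reads in each ZT14 library, all under the 3 reads that a count of 0 allows. No ratio was read from it, and a difference was not detectable at this depth.

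Among genes of glutathione supply, *Gclm* and *Gclc* encode the modifier and the catalytic subunit of glutamate-cysteine ligase, which makes the first bond of glutathione. *Gclm* had 16.9, 14.2, 15.9 and 14.4 CPM in Cont_ZT2, Cont_ZT14, MCS_ZT2 and MCS_ZT14. The ZT2 libraries were the higher pair, by less than the counting intervals. *Gclc* had 28.1, 31.9, 32.1 and 27.2 CPM, so that the highest levels were in MCS_ZT2 and Cont_ZT14. *Slc7a11*, the light chain of the cystine-glutamate exchanger that brings in the cysteine for glutathione, had 9.35, 9.78, 6.15 and 15.4 CPM. Both control libraries were alike, MCS_ZT2 lay below them and MCS_ZT14 above, a range of 2.51 times that was the widest among the members above 1 CPM. *Gsr*, the reductase that returns oxidized glutathione to its reduced form, had 49.7, 41.6, 51.2 and 58.7 CPM, lowest in Cont_ZT14 and highest in MCS_ZT14.

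In the thioredoxin branch, *Txnrd1*, the cytosolic thioredoxin reductase, had 46.7, 62.9, 39.1 and 68.5 CPM. Both ZT14 libraries were above both ZT2 libraries, and the highest level was 1.75 times the lowest. *Srxn1*, the sulfiredoxin that repairs overoxidized peroxiredoxins, had 15.6, 17.2, 12.6 and 19.6 CPM in the same order as *Txnrd1*, with the lowest level in MCS_ZT2 and the highest in MCS_ZT14. *Prdx1*, an abundant peroxiredoxin that reduces hydrogen peroxide, had 130, 127, 122 and 139 CPM. The last gene was lowest in MCS_ZT2 and highest in MCS_ZT14 as well, within a range of 1.14 times. Across the 9 genes above 1 CPM the median range of log2 CPM over the libraries was 0.43, and over the 12511 genes above that mean it was 0.41.

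Reads of some members can be shared with other genes. *Slc7a11* (chr3:49892526-50443614 in GRCm38, minus strand) carries in its 3′ untranslated region, in exon 12 at chr3:50370391-50370762, an alpha-tubulin-like stretch of 373 aligned bases that is 95.4%, 96.2% and 96% identical to *Tuba1c*, *Tuba1b* and *Tuba1a*, genes named after their values were seen. The stretch is 4.04% of the 9223 bases of the transcript. These 3 tubulin genes together had 404, 561, 389 and 651 CPM, in the order of libraries above, and were highest in MCS_ZT14 and lowest in MCS_ZT2, as *Slc7a11* was. In control they were lower at ZT2 than at ZT14, while *Slc7a11* was alike in both control libraries. *Slc7a11* made up 1.55% to 2.32% of the sum of the 4 genes, so a summed ratio says nothing of *Slc7a11* itself, and the part of the tubulin genes in its values was not tested. *Gclm* holds 287 bases that are 97.9% identical to *Ppia*, at 386 to 431 CPM, *Prdx1* has a pair of similar pseudogenes outside the listed genes, and *Txnrd1* overlaps *Eid3* on the same strand, at 1.97 to 2.86 CPM.

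Whether MCS altered the antioxidant response 12 h after stimulation was asked by comparing the libraries at ZT14. *Slc7a11* was higher in MCS than in control, at a log2 ratio of 0.65 with a 95% interval from 0.27 to 1.05. *Gsr*, with 0.49 (0.31 to 0.69), and *Prdx1*, with 0.13 (0.02 to 0.25), were higher as well. *Nfe2l2* was lower, with -0.32 (-0.46 to -0.17). Ratios were taken after adding 0.1 CPM, and the intervals, exact binomial intervals on recovered reads, cover counting error only and compare libraries, not groups of mice. The other genes had intervals that included no change, with 0.19 for *Srxn1* (-0.12 to 0.50), 0.12 for *Txnrd1* (-0.04 to 0.29), 0.04 for *Keap1*, 0.02 for *Gclm* and -0.23 for *Gclc* (-0.47 to 0.02). No member passed the study's criterion for a changed gene, which asks for a log2 ratio beyond 1 in either direction at a mean of more than 1 CPM, and which 3.4% of 12368 genes passed. Intervals above 0 were found in 3 of the 9 members and in 18.7% of these genes, and intervals below 0 in 1 member and in 18.9%. The median log2 ratio of the members was 0.12 and that of all genes 0.00, while the median size without sign was 0.186 for the members and 0.213 for all genes. The 3 tubulin genes together had 0.21 (0.16 to 0.27).

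Immediately after MCS, at ZT2, *Nfe2l2* was higher in MCS than in control, by a log2 ratio of 0.24, with a 95% interval from 0.08 to 0.40. *Slc7a11* and *Txnrd1* were lower, with -0.60 (-1.13 to -0.09) and -0.25 (-0.47 to -0.04). The remaining intervals included no change, and the ratios ran from -0.30 for *Srxn1* (-0.68 to 0.07) through -0.09 for *Prdx1*, -0.08 for *Gclm*, 0.04 for *Gsr* and 0.11 for *Keap1* to 0.19 for *Gclc* (-0.06 to 0.45). No member passed the criterion, which 2.21% of 12612 genes passed. Intervals above 0 were found in 1 of 9 members against 11.5% of all genes, and intervals below 0 in 2 members against 11%. The median log2 ratio was -0.08 for the members and 0.00 for all genes. The 3 tubulin genes together had -0.05 (-0.12 to 0.02).

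**Figure D2:**
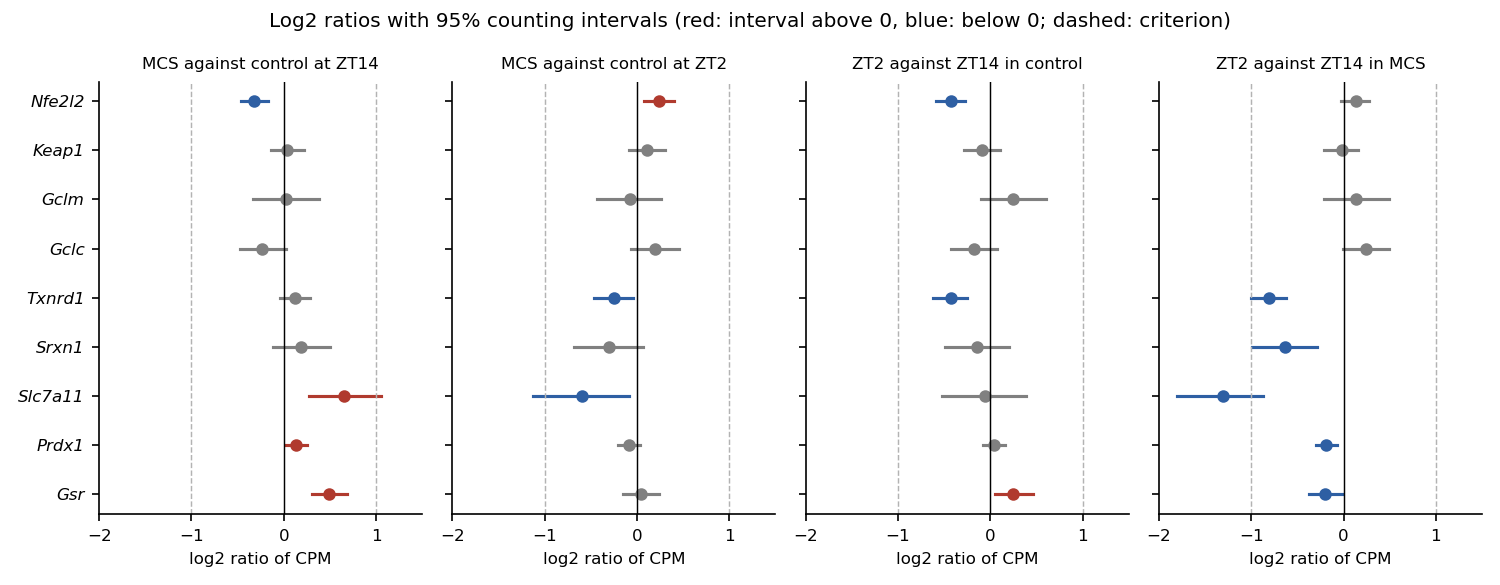
Log2 ratios of CPM (horizontal axis) for the 9 genes above 1 CPM in 4 panels, MCS to control at both times and then ZT2 to ZT14 within each condition, with lines for the 95% counting interval, red where it lies above 0 and blue where it lies below, and dashed lines at the criterion. *Slc7a11* at -1.31 in the last panel is the only point past a dashed line, and 5 of the 9 intervals there lie below 0.

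The ratio of MCS to control was then set against itself at both time points, which share no library. *Slc7a11* was 1.26 higher on the log2 scale at ZT14 than at ZT2 (95% interval 0.64 to 1.89), the difference farthest from 0 among the members. *Srxn1* differed by 0.49 (0.01 to 0.96), *Gsr* by 0.45 (0.18 to 0.72), *Txnrd1* by 0.38 (0.11 to 0.64) and *Prdx1* by 0.22 (0.06 to 0.39), each with the higher ratio at ZT14. *Nfe2l2* and *Gclc* differed the other way, by -0.55 (-0.77 to -0.34) and -0.42 (-0.77 to -0.08). The intervals of *Gclm* (-0.37 to 0.59) and *Keap1* (-0.33 to 0.19) included no difference. The transporter, the reductases, the sulfiredoxin and the peroxiredoxin thus had positive differences. The genes of the activator and of the catalytic subunit of glutamate-cysteine ligase had negative ones. The share of all genes with such differences was not computed, so the split describes these members only.

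**Figure D3:**
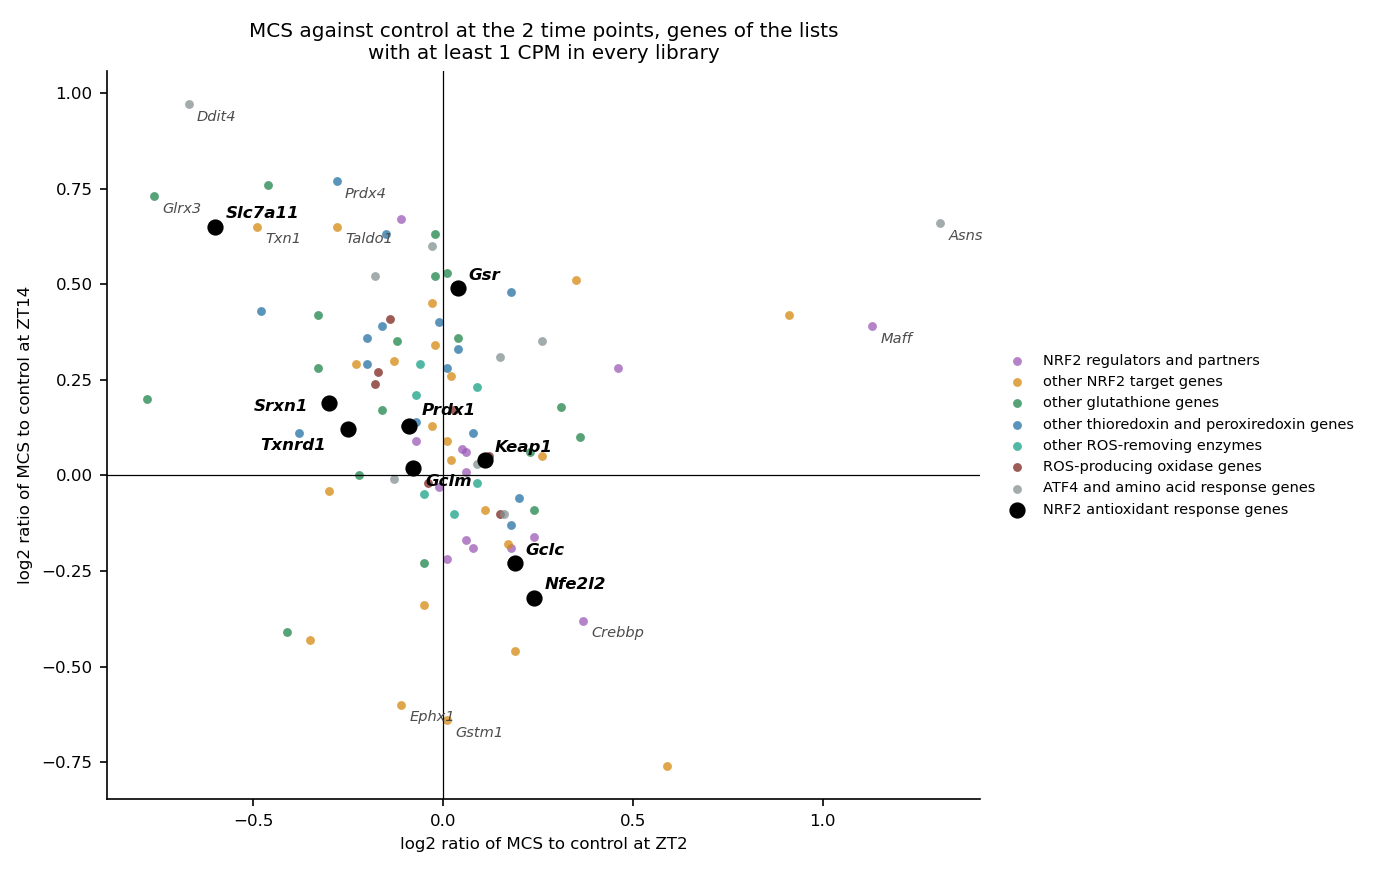
Log2 ratio of MCS to control at ZT2 (horizontal axis) and at ZT14 (vertical axis) for genes of the NRF2 list, in black, and of 7 related lists, in colour, with at least 1 CPM in every library. *Slc7a11* lies at -0.60 and 0.65, near *Txn1* at -0.49 and 0.65, and *Nfe2l2* lies in the opposite corner at 0.24 and -0.32.

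Differences between the times of day were examined in control first. *Nfe2l2* and *Txnrd1* were lower at ZT2 than at ZT14, each with a log2 ratio of -0.43 (95% intervals -0.59 to -0.27 and -0.62 to -0.25). *Gsr* was higher at ZT2, with 0.25 (0.05 to 0.46). *Gclm* had a ratio of the same size, 0.25, but on fewer reads, with an interval from -0.10 to 0.60, and *Slc7a11*, with -0.06 (-0.52 to 0.39), and *Prdx1*, with 0.04 (-0.08 to 0.16), were near 0. *Gclc* had -0.18, *Srxn1* -0.14 and *Keap1* -0.09, all with intervals that included no change. No member passed the criterion, against 3.61% of 12465 genes, and 1 and 2 of the 9 members had intervals above and below 0, against 13.6% and 15.9% of all genes. The median log2 ratio was -0.09 for the members and -0.00 for all genes.

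In the MCS libraries, 5 of the 9 members had intervals below 0 for ZT2 against ZT14. *Slc7a11* had a log2 ratio of -1.31 (95% interval -1.81 to -0.87) and was the only member past the criterion in any of the 4 comparisons. *Txnrd1* followed with -0.81, with an interval that reached up to -0.62, and *Srxn1* with -0.63 (-0.99 to -0.29), whereas *Gsr* with -0.20 (-0.38 to -0.02) and *Prdx1* with -0.19 (-0.30 to -0.07) differed less. *Nfe2l2*, with 0.13 (-0.03 to 0.28), *Gclc*, with 0.24 (-0.01 to 0.49), *Gclm*, with 0.14, and *Keap1*, with -0.02, had intervals that included no change. Over 12534 genes, 5.83% passed the criterion, 22.2% had intervals below 0 and 21.9% had intervals above 0, the last found in 0 of the 9 members. The median log2 ratio of the members was -0.19, against 0.01 for all genes. The 3 tubulin genes together had -0.74 (-0.80 to -0.68). Eosinophil and mast cell markers, whose sums are given above, had the reverse order of libraries to *Slc7a11*, *Txnrd1* and *Srxn1*, and their part in these results was not tested. The comparisons in control and in MCS share no library with each other, but each shares libraries with the comparisons of MCS to control.

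An alternative test on the recovered reads, edgeR's quasi-likelihood test with additive terms for MCS and time and 1 residual degree of freedom, asked for an effect common to both times or both conditions. For MCS it called 23 of 12404 genes (0.185%, Benjamini-Hochberg adjusted p under 0.05) and none of the 9 members, whose adjusted p was 1 in each case and whose unadjusted p was under 0.05 in 0 of 9, against 2.42% of all genes. *Gsr* had the lowest unadjusted value, with a common log2 ratio of 0.27 (edgeR adjusted p = 1). Its single ratios of MCS to control were 0.49 at ZT14 and 0.04 at ZT2, where the interval (-0.15 to 0.24) included no change. For time it called 2.23% of the genes and again none of the members. *Txnrd1* came nearest, with ZT2 below ZT14 by a log2 ratio of -0.62 (edgeR adjusted p = 0.0521) over both conditions, and *Slc7a11* had -0.69 (edgeR adjusted p = 0.281). These 2 of 9 members were under 0.05 without adjustment, against 10.3% of all genes.

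Ratios also moved with the length of the transcript. At ZT14, the median log2 ratio of MCS to control went from 0.18 to -0.13 over 10 classes of genes of about equal size, ordered from the shortest to the longest transcripts. At ZT2 it went from -0.06 to 0.03, and in ZT2 against ZT14 in MCS from -0.18 to 0.13. *Slc7a11*, in the class of the longest transcripts, lay on the other side of its neighbours, and relative to them its log2 ratio was 0.79 (95% interval 0.40 to 1.19) at ZT14, -0.63 (-1.17 to -0.12) at ZT2 and -1.44, with a lower limit of -1.94, for ZT2 against ZT14 in MCS. *Nfe2l2*, in class 5, had -0.34 and 0.24, and *Gsr* had 0.47 at ZT14. The interval of *Prdx1* at ZT14 included no change on this scale, at 0.09 (-0.02 to 0.21). *Txnrd1* had -0.83 for ZT2 against ZT14 in MCS. This comparison with genes of like length was chosen after the data were seen.

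**Figure D4:**
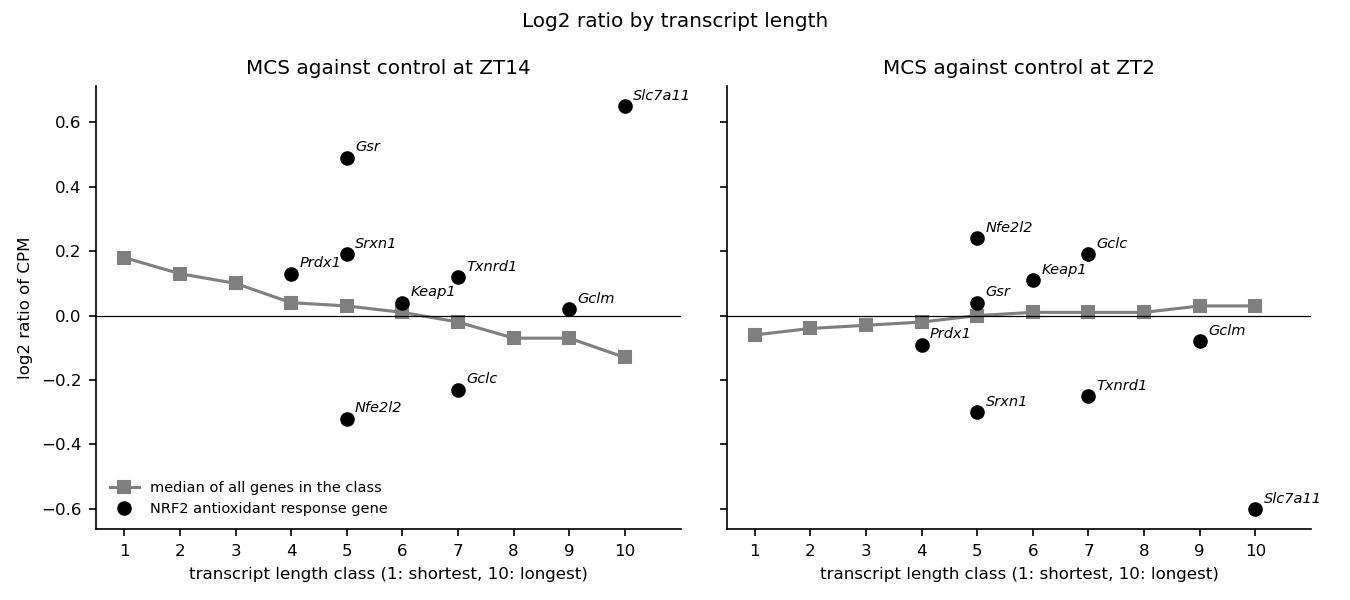
Log2 ratio of MCS to control at ZT14 (left) and ZT2 (right) against the class of transcript length, from the shortest (1) to the longest (10), with squares for the median of all genes in the class and circles for the NRF2 response genes. The medians fall from 0.18 to -0.13 at ZT14 and climb from -0.06 to 0.03 at ZT2, while *Slc7a11* in class 10 lies at 0.65 and -0.60.

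Genes of related lists were taken next, and their counts are to be read against the shares of all genes given above for MCS against control, which were 18.7% above and 18.9% below 0 at ZT14 and 11.5% and 11% at ZT2. Of 15 regulator and partner genes, all above 1 CPM, 3 had intervals above and 4 below 0 for MCS against control at ZT14, with a median log2 ratio of 0.01, and at ZT2 the counts were 3 and 0, with a median of 0.06. *Maff*, a small MAF partner, was the only one past the criterion, with 4.18 CPM in MCS and 1.85 in control at ZT2, a log2 ratio of 1.13 (95% interval 0.29 to 2.13) on few reads. *Crebbp*, a coactivator, had 256, 312, 330 and 240 CPM in Cont_ZT2, Cont_ZT14, MCS_ZT2 and MCS_ZT14, with ratios of 0.37 at ZT2 and -0.38 at ZT14, as for *Nfe2l2* positive at the former and negative at the latter. *Bach1*, the repressor that competes for the same DNA elements, differed by -0.03 at ZT14 and -0.01 at ZT2. *Rbx1*, the ring protein of the ubiquitin ligase, was higher in MCS at ZT14, with 34.2 against 21.4 CPM, and *Nfe2*, a relative of *Nfe2l2*, was higher in MCS at both times, with 0.28 and 0.46.

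Other genes known as NRF2 targets were split in direction at ZT14. Of 28 in the table, 23 were above 1 CPM. At ZT14, 8 had intervals above and 6 below 0, with a median log2 ratio of MCS to control of 0.05, and at ZT2 the counts were 1 and 5, with a median of 0.01. *Txn1*, the cytosolic thioredoxin and substrate of *Txnrd1*, had 101, 96.3, 72 and 151 CPM in the order of libraries above. It was lowest in MCS_ZT2 and highest in MCS_ZT14, with log2 ratios of 0.65 (95% interval 0.53 to 0.77) at ZT14 and -0.49 (-0.64 to -0.34) at ZT2, and it passed the criterion for ZT2 against ZT14 in MCS, with -1.06. *Taldo1*, of the pentose phosphate pathway that supplies NADPH, had 0.65 and -0.28. *Gstm1* and *Ephx1*, which detoxify reactive chemicals, were lower in MCS at ZT14, with -0.64 (-0.91 to -0.37) and -0.60 (-0.75 to -0.44). *Hmox1*, which breaks down heme, followed *Nfe2l2* in sign, with 0.18 at ZT2 and -0.23 at ZT14, but in control it was higher at ZT2, with 109 against 89.5 CPM, where *Nfe2l2* was lower.

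The other genes of the glutathione and thioredoxin systems had positive medians at ZT14 and negative ones at ZT2. The macrophage markers had medians of the same signs, 0.20 at ZT14 and -0.05 at ZT2, so these signs were not particular to the 2 systems. Of 19 other glutathione genes above 1 CPM, 7 had intervals above and 1 below 0 in MCS against control at ZT14, with a median of 0.28, and 0 and 3 at ZT2, with a median of -0.05. *Gpx1*, the main glutathione peroxidase, had 984 CPM in MCS and 686 in control at ZT14, which is 0.52 on the log2 scale (0.47 to 0.57), and *Glrx*, a glutaredoxin, had 0.63. *Slc3a2*, the heavy chain that pairs with the *Slc7a11* product, went against *Slc7a11* at ZT14, with -0.23 (-0.37 to -0.09). At ZT2 *Slc3a2* had -0.05 (-0.17 to 0.08), an interval that included no change. *Glrx3* had 0.73 at ZT14, but 0.17 (-0.04 to 0.38) when summed with *Gm12669*, a near-identical gene named after its values were seen. Of the 16 other thioredoxin and peroxiredoxin genes, 11 had intervals above and 0 below 0 at ZT14, with a median of 0.34, and 0 and 5 at ZT2, with a median of -0.11. *Prdx4* had 0.77 and *Prdx5* 0.63 at ZT14. *Prdx5* shares 360 bases at 100% identity with *Trmt112*, at 43.9 to 47.6 CPM, and the part of shared reads was not tested. For ZT2 against ZT14 in MCS the medians of both lists were -0.34 and -0.41, and in control -0.05 and 0.08. The transcripts of *Txn1*, *Prdx4* and *Gpx1* lie in class 1 of length and those of *Taldo1* and *Prdx5* in class 2. Relative to genes of like length, the ratio at ZT14 was 0.47 for *Txn1*, 0.51 for *Taldo1*, 0.59 for *Prdx4*, 0.50 for *Prdx5* and 0.34 for *Gpx1*. Their intervals lay above 0, but these genes were named for high ratios or abundance and do not stand for their lists. On the same scale *Txn2* had -0.03 (-0.20 to 0.15) and *Slc3a2* -0.25 (-0.39 to -0.11). The share of all genes with such intervals was not computed.

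Enzymes that remove or make oxidants formed the last lists of the pathway. Of 6 other enzymes that remove reactive oxygen species (ROS), 3 had intervals above and 0 below 0 at ZT14, with a median log2 ratio of MCS to control of 0.09, and 1 and 0 at ZT2, with a median of -0.01. *Sod1*, a superoxide dismutase, had 0.21 (0.08 to 0.34) at ZT14, and *Cat*, the catalase, -0.10 (-0.22 to 0.01). Relative to genes of like length, *Sod1* had 0.03 (-0.10 to 0.16), which included no change, and *Cat* -0.13 (-0.25 to -0.01). Of 7 genes of the oxidase that makes superoxide, 4 had intervals above and 1 below 0 at ZT14, with a median of 0.17, and 2 and 3 at ZT2, with a median of -0.04. *Cybb*, its catalytic subunit, had 1707, 1669, 1516 and 2012 CPM in Cont_ZT2, Cont_ZT14, MCS_ZT2 and MCS_ZT14, lowest in MCS_ZT2 and highest in MCS_ZT14. Genes of the amino acid response under ATF4, which is known to control *Slc7a11* as well, had a median of 0.31 at ZT14 and -0.03 at ZT2 over 11 genes, with 4 intervals above and 1 below 0 at ZT14 and 1 of each at ZT2. *Atf4* itself differed by -0.01 and -0.13, and *Ddit4* had 37.6, 18, 23.5 and 35.4 CPM, with 0.97 at ZT14 and -0.67 at ZT2. *Asns* passed the criterion at ZT2 with 3.02 against 1.15 CPM, a log2 ratio of 1.31 (0.29 to 2.60) on only 26 and 10 reads.

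**Figure D5:**
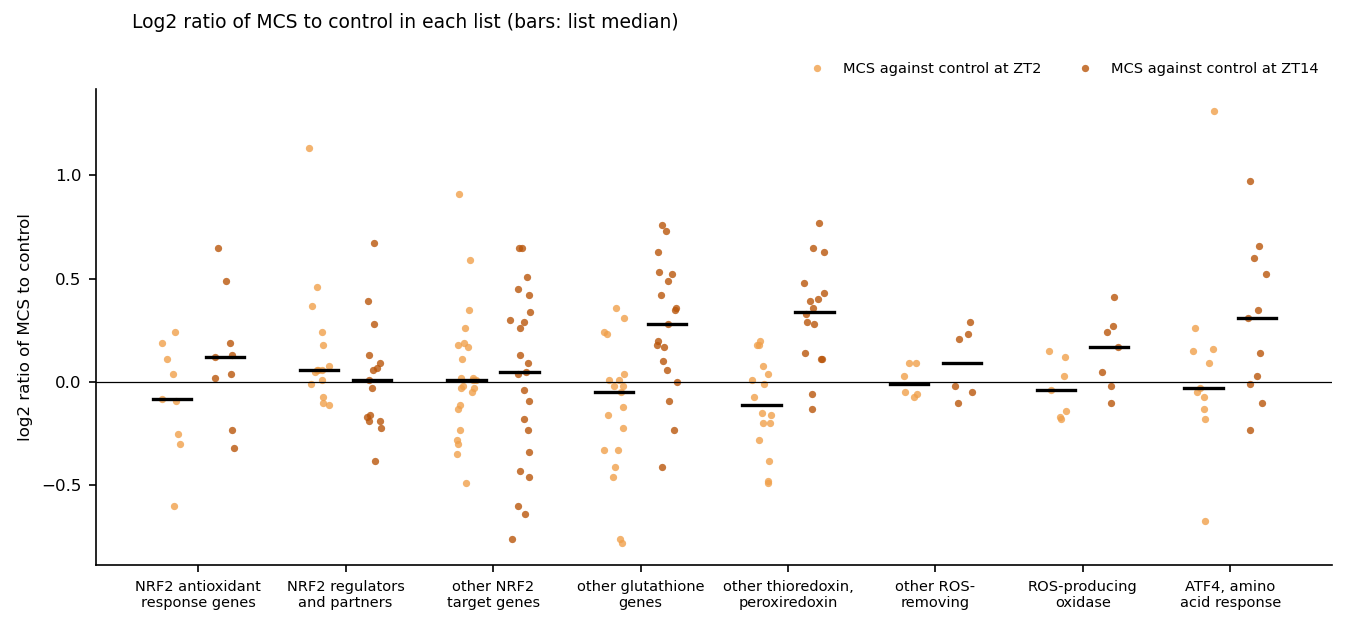
Log2 ratio of MCS to control for each gene of the NRF2 response and 7 related lists, at ZT2 (light) and ZT14 (dark), with a black bar for the median of each list. The medians at ZT14 are 0.12 for the NRF2 response genes, 0.28 for other glutathione genes and 0.34 for other thioredoxin and peroxiredoxin genes, and at ZT2 they are -0.08, -0.05 and -0.11.

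The genes nearest in pattern were sought for *Nfe2l2* and *Slc7a11* among 8631 genes with a mean of at least 10 CPM, by the root mean square difference of log2 CPM centred over the 4 libraries. *Ppard* (0.00794), *Fmnl1* (0.0119), *Capn15* (0.0167), *Atxn2* (0.0179) and *Kdm1b* (0.0186) were the nearest to *Nfe2l2*. *Ppard* had 27.9, 37.9, 32.8 and 30 CPM in Cont_ZT2, Cont_ZT14, MCS_ZT2 and MCS_ZT14, and 567 genes lay within 0.1 of *Nfe2l2*, so that its pattern was a common one. *Oaz1* (0.0481), *Hist1h4i* (0.0807), *Tspan17* (0.0828), *Rps19* (0.0952) and *Rpl9* (0.0992) were nearest to *Slc7a11*, and no further gene lay within 0.1 of it. *Oaz1* had 156, 158, 102 and 236 CPM, with both control libraries alike, MCS_ZT2 below and MCS_ZT14 above, as for *Slc7a11*. With 4 libraries, such likeness describes these libraries only.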

How the data were processed

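Bulk RNA-seq of peritoneal macrophages was analysed in 4 libraries, grouped by the labels. Per the methods and the labels, the authors depleted rRNA, made directional paired-end 150 nt libraries from 200 ng of RNA, trimmed reads with Trimmomatic 0.38, counted with RSEM 1.3.0 and Bowtie 2 (build mm10), and deposited CPM normalized by edgeR. The annotation, expression filter and strand setting are not given in the sources used here, and RNA extraction is described differently in the labels and the methods. All columns were mapped to samples. Dividing by the smallest step gave whole reads for 100% of values within 0.05 read. Since RSEM gives estimates, the reads may carry rounding by the authors.

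Ratios are log2 of CPM + 0.1. Counts of members cover genes with a log2 mean CPM above 0. Exact conditional binomial (Clopper-Pearson) 95% intervals were used, with a normal approximation for differences between ratios. The members, lists and tests were chosen with earlier results of these data known. Of each related list, genes past the criterion, the 3 most abundant and those with the highest and lowest ratios of MCS to control above 10 CPM could be named, and the 5 nearest in pattern. The count test used edgeR 4.0.16 in R 4.3.3 on genes with at least 40 reads (biological coefficient of variation 0.14), adjusted over all genes tested. Alternatives were other pseudocounts, minimum levels, thresholds and scalings. The values of 1 gene of the related lists are not reported here. The calculations were tested on simulated data. Transcripts came from GENCODE for GRCm38 and were compared with blastn 2.17.0, and promoters came from RefSeq. Other software was scipy 1.17.1, pandas 2.3.3, numpy 2.4.6 and matplotlib 3.10.9 under Python 3.11.15.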

Additional observations from a re-analysis of the deposited data

Results flagged for a closer look

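The ratio of MCS to control pointed one way at ZT2 and the other way at ZT14, with both counting intervals excluding no change, for 2 of the 9 members above 1 CPM (22.2%). The same held for 17 of the 94 other genes of the related lists (18.1%) and for 10.2% of 12236 genes above 1 CPM at both times. Of the genes of the related lists, 13 are named, and the naming rule favours high and low ratios, so their number is no evidence. The difference is given as log2 ratio at ZT14 minus log2 ratio at ZT2, and between conditions it was not tested, since each condition has 1 library. *Slc7a11* differed by 1.26 and *Nfe2l2* by -0.55. Among other targets and partners of NRF2, *Txn1* differed by 1.13, *Taldo1* by 0.93 and the scavenger receptor gene *Cd36* by 0.43, while *Crebbp* differed by -0.75 and *Hmox1* by -0.41. In the glutathione and thioredoxin lists, *Glrx3* differed by 1.51, *Prdx4* by 1.05, *Prdx5* by 0.78 and *Mgst1*, a microsomal glutathione transferase, by 0.76. Summed with the near-identical *Gm12669*, *Glrx3* had log2 ratios of 0.17 (-0.04 to 0.38) at ZT14 and -0.03 (-0.25 to 0.20) at ZT2. Both of these intervals included no change. Of the oxidase genes, *Cyba* differed by 0.55, *Cybb* by 0.44 and *Rac2* by -0.24. *Ddit4*, of the amino acid response, differed by 1.65. By this selection, a gene with a positive difference is lower in MCS than in control at ZT2 and higher at ZT14.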

How the results depend on the processing

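No paired analysis was possible because each condition has 1 library, and for the same reason no replicate was left out. A threshold of 1.5-fold in place of 2-fold gave 1 member at ZT14, 1 at ZT2 and 3 for ZT2 against ZT14 in MCS, where the counts were 0, 0 and 1. The share of all genes past 1.5-fold was not computed, so these counts describe the members only. Other pseudocounts, minimum levels, scalings (factors from 0.988 to 1.013) and the comparison by length left the sign of 271 of 272 ratios and medians, the exception being *Keap1* for ZT2 against ZT14 in MCS (-0.02, then 0.01). They altered 3 of 56 counts, all of intervals that excluded no change, from 4 to 3 at ZT14 by length, from 3 to 2 at ZT2 with a log2 mean above 3, and from 5 to 6 for ZT2 against ZT14 in MCS with totals free of abundant genes. The count test gives 1 common effect by construction, and 11 of its 36 values differ in sign from the single comparisons. In 3 of these the interval had excluded no change, namely *Nfe2l2* (-0.04) and *Slc7a11* (0.08) for MCS at ZT2 and *Gsr* (0.03) for ZT2 against ZT14 in MCS. The sum of *Slc7a11* with the tubulin genes, an alternative chosen after the data were seen, restates the tubulin ratio. Depth limits *Nqo1*, for which no ratio is given.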
